A study of Homo sapiens with 12 samples.

Results

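The human pancreatic β-cell line EndoC-βH1 was profiled for circular RNAs (circRNAs) after 24 h with or without IL-1β and IFN-γ, 2 pro-inflammatory cytokines. The comparison holds 6 of the 12 arrays of the series, chosen by their labels: 3 of untreated cells cultured for 24 h and 3 of cells exposed for 24 h to 50 U/mL IL-1β together with 1000 U/mL IFN-γ. The other 6 arrays are untreated and cytokine-exposed cells cultured for 48 h. The labels give those cytokine arrays an exposure of 24 h and the study's methods one of 48 h, so "48 h" is used here for the culture time. EndoC-βH1 is a single line made from human fetal pancreas with the large T antigen of a simian virus under the insulin promoter, and all cells were grown on coated plates (matrigel and fibronectin). The array carries 13617 circRNA probes, each with 1 spot. Their only names in the files are the maker's identifiers, so probes are counted here and 4 are given by identifier. None of the 10 β-cell markers looked for, insulin among them, has a linear probe on the array, so the cell type could not be checked against them.

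CircRNAs form when a downstream splice donor is joined to an upstream splice acceptor, which closes an exon or several exons of a host gene into a ring without free ends. Rings resist the exonuclease RNase R, which degrades linear RNA, and total RNA was treated with it before labelling. Both cytokines are released by immune cells that infiltrate the islets in autoimmune diabetes. IL-1β signals through its receptor to NF-κB, and IFN-γ through Janus kinases to STAT transcription factors, and together they switch on inflammatory and antigen-presentation genes in β cells.

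On the 3 untreated arrays, 9144, 9734 and 9617 of the 13617 circRNA probes were well above background, the detection flag of the scanner software. On the 3 cytokine arrays the numbers were 10226, 8799 and 9146. The groups overlapped, and their means differed by -108 probes, cytokines minus untreated (9390 ± 744 against 9498 ± 312, SD, n = 3 each; exact two-sided permutation test, p = 1, where 0.1 is the smallest p that 3 against 3 allows). The median signal was 25 to 37 units over a median background of 14.5 to 15.5 units, and no circRNA probe was saturated. All 6 arrays share 1 slide, so the slide does not differ between the groups. The second cytokine array was scanned apart from the other 5. The first cytokine array correlated least with the others (r from 0.858 to 0.923 over the retained probes). The labels call the arrays replicates without saying that they are separate cultures, so p-values measure the spread between these arrays, which may be technical.

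Among the circRNA probes that passed the cutoffs at 24 h, far more were higher than lower with cytokines. Of 10211 retained probes, those detected on at least 3 of the 12 arrays, 127 were differentially expressed (DE), which is 1.24% of those tested, with 113 higher (1.11%) and 14 lower (0.137%) in treated cells. DE means at least 1 log2 unit of change in either direction and an adjusted p-value under 0.05, from limma with Benjamini-Hochberg adjustment in a fit of all 12 arrays. The log2 fold change of the 113 ran from 1.01 to 5.84 with a median of 2.20, and that of the 14 from -2.33 to -1.04 with a median of -1.37. Over all retained probes the median was -0.08, 44.1% were on the higher side, and 91.1% lay within 1 log2 unit of no change. The values are relative to the other circRNA probes of an array, and in such bulk RNA fewer cells that make a circRNA and less of it per cell cannot be told apart.

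**Figure D1:**
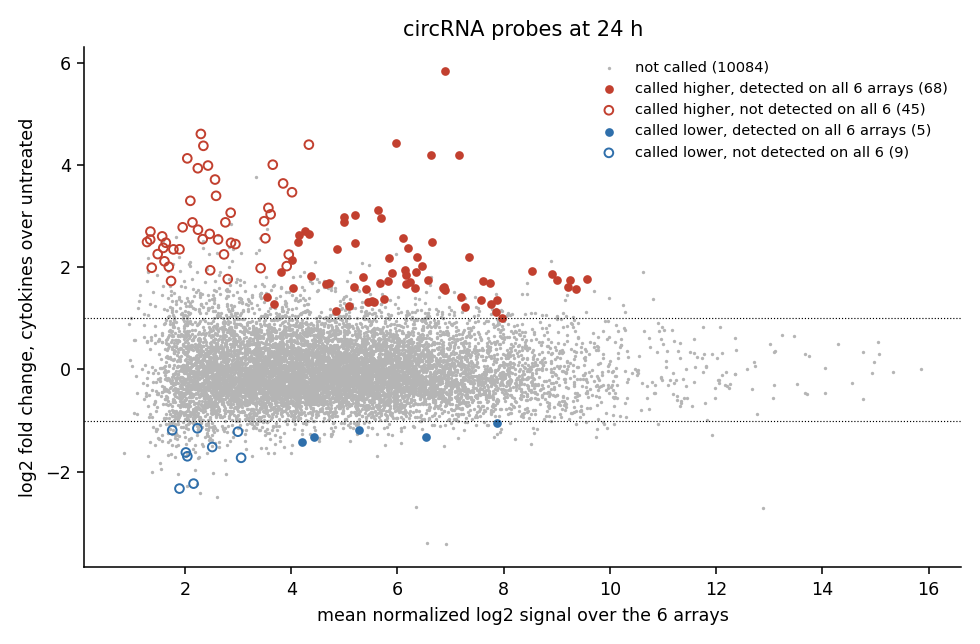
Log2 fold change at 24 h, cytokines over untreated, against the mean normalized log2 signal over the 6 arrays, for 10211 retained circRNA probes. Grey points were not called; red points were called higher and blue points lower, filled where the probe was well above background on all 6 arrays (68 and 5 probes) and open otherwise. Dotted lines mark a log2 fold change of 1 in either direction. The called rises span the signal range up to nearly 10, and most of the called falls are open points at its dim end.

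Most of the rises lay under 3 log2 units. The log2 fold change lay from 1 to 2 in 50 of the 113 probes, from 2 to 3 in 42, from 3 to 4 in 12 and above 4 in 9. In 32 of the 113, some of those above 4 included, no untreated array was detected. For these the fitted value rests on signals near background, and the size has only a bound. In all 127 DE probes, each cytokine array lay on the same side of each untreated array, as it did for 17.5% of all retained probes (8.63% with the cytokine arrays higher and 8.87% with them lower). The gap between the lowest cytokine array and the highest untreated array had a median of 1.20 log2 units over the rises (0.34 to 5.05). For the falls, the median gap between the lowest untreated and the highest cytokine array was 0.89 (0.65 to 1.63). A further 785 probes, 493 higher and 292 lower, reached the fold cutoff without passing the adjusted p-value, and in 388 of them the groups did not overlap. At an unadjusted p under 0.05 there were 1948 probes.

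Read array by array, the rises were seen on all 3 cytokine arrays, though not equally. The probes were called on these same arrays, which favours such agreement, so this is only a description. Relative to the mean of the untreated arrays, the 113 rises had median log2 differences of 2.27, 2.23 and 1.86 on the 3 cytokine arrays in replicate order, and of -0.15, -0.08 and 0.10 on the 3 untreated arrays. The third cytokine array had the lowest value of its group in 65 of the 113 rises and the highest in 13. Over all retained probes it was the lowest in 33.5%. Among untreated arrays, the third had the highest value in 58 of the 113. The 14 falls had medians of -1.62, -1.19 and -1.27 on the cytokine arrays.

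Single arrays therefore weighed on the number of DE probes. It was 448 (325 higher and 123 lower) without the third cytokine array and 312 (263 and 49) without the third untreated array. Without the first or the second cytokine array it was 74 and 64, and without the first or the second untreated array 70 and 68. A total of 52 probes, 50 higher and 2 lower, were called in all 6 of these fits, with a median log2 fold change of 2.65 over the 50, against 1.75 over the other 63 rises. Of the 329 probes added without the third cytokine array, 3 were called at 48 h, where 0.979% of all retained probes were, and 66.6% had the same sign there, against 54.0% of all retained probes.

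**Figure D2:**
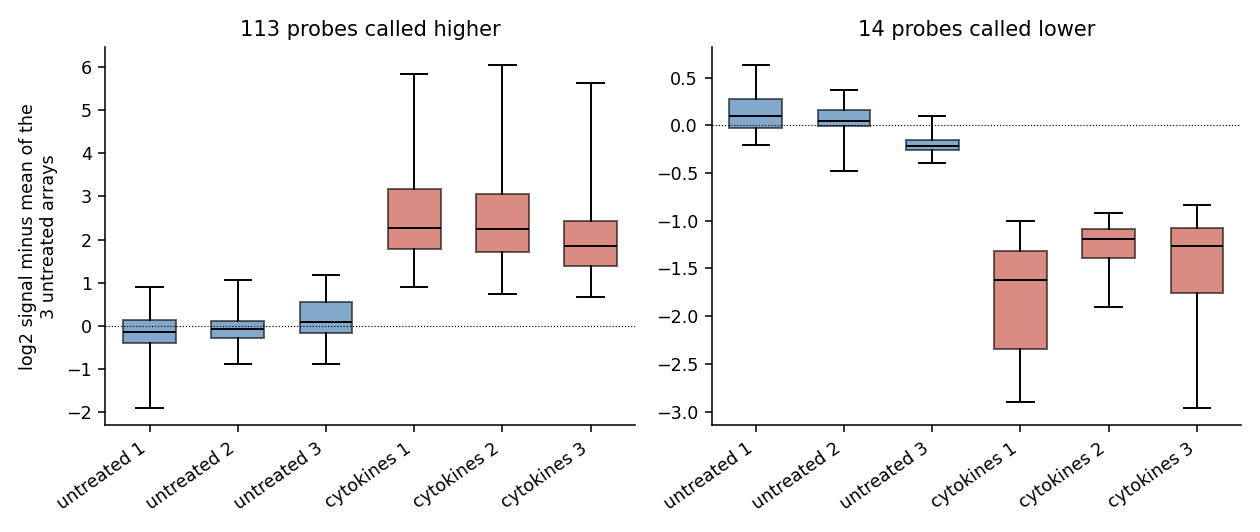
Log2 signal on each of the 6 arrays minus the mean of the 3 untreated arrays, for the 113 probes called higher (left) and the 14 called lower (right) at 24 h. Boxes span the quartiles with the median as a line and whiskers reach the lowest and highest probe; untreated arrays are blue and cytokine arrays red. The third cytokine array has the lowest median of its group in the left panel (1.86), and the first has the lowest in the right panel (-1.62).

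A fold change is measured on both sides only where both groups are detected. Of the 7967 probes well above background on all 6 arrays, 73 were DE (0.916%), of which 68 were higher and 5 lower. The 68 rises had a median log2 fold change of 1.75, and 23 of them were at least 4-fold. Their median level was 4.95 in untreated and 7.12 in treated cells on the normalized log2 scale. The 5 falls lay between -1.41 and -1.04 in log2 fold change, so none reached 4-fold. The median over all 7967 was -0.08. Fitted to the 6 arrays of 24 h alone, 16 of these probes were called, and 44 of all retained probes. Leaving out 1 array gave 28 to 35, apart from 207 without the third untreated array and 321 without the third cytokine array.

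The largest of these rises was probe ASCRP3002713. Its normalized log2 signal was 3.49, 3.91 and 4.56 on the untreated arrays and 9.83, 10.04 and 9.60 on the cytokine arrays. The 3 cytokine values lay close together and more than 5 log2 units above every untreated value. This is a log2 fold change of 5.84 (standard error, SE, 0.33; adjusted p = 1.27e-06 from limma), or 57.2-fold, from a geometric mean of 15.8 to 905 intensity units. On 2 of the 3 untreated arrays its signal, though flagged well above background, was under that of the brightest negative-control probe, so the fold rests on an untreated level near background. Next came ASCRP3005644, at 4.32, 4.04 and 2.91 on the untreated and 9.22, 8.05 and 7.26 on the cytokine arrays. Here both groups were spread over more than 1 log2 unit, without overlap. The rise came to 4.42 log2 units (SE 0.48, adjusted p = 5.81e-04), or 21.5-fold, and it too was under the brightest negative control on 2 untreated arrays. Both probes stayed DE under every alternative in which they were tested (22 and 21 of them), with log2 fold changes from 3.78 to 6.12 (adjusted p from 2.96e-08 to 4.22e-04) and from 2.33 to 4.88 (adjusted p from 2.49e-05 to 0.0132).

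The largest falls among probes detected on all 6 arrays were smaller than these rises. ASCRP3007781 read 4.83, 5.15 and 4.73 in untreated cells and 2.78, 3.82 and 3.87 in treated cells. The first cytokine array was the lowest, about 1 log2 unit under the other two, and 2 of the 3 cytokine values were under the brightest negative control. The fitted difference was -1.41 log2 units (SE 0.31, adjusted p = 0.0493), which is 2.66-fold lower. ASCRP3001365 read 7.65, 7.16 and 6.81 in untreated cells and 5.48, 6.12 and 6.03 in treated cells. The fitted difference was -1.33 log2 units (SE 0.28, adjusted p = 0.0435), which is 2.51-fold lower. Under 22 alternatives the call of ASCRP3007781 was lost in 14 (log2 fold change from -1.60 to -0.39, adjusted p from 0.00418 to 0.235) and that of ASCRP3001365 in 11 (-1.53 to -0.82, adjusted p from 0.00663 to 0.231). Some losses were of fold and not of p: with the signal before background subtraction, with normexp and with the deposited values, ASCRP3007781 had -0.77, -0.39 and -0.74 at adjusted p of 0.0268, 0.019 and 0.0125. Each was lost without the first or second untreated array and without the first or second cytokine array, with an adjusted p of at most 0.207 for ASCRP3007781 and 0.17 for ASCRP3001365.

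**Figure D3:**
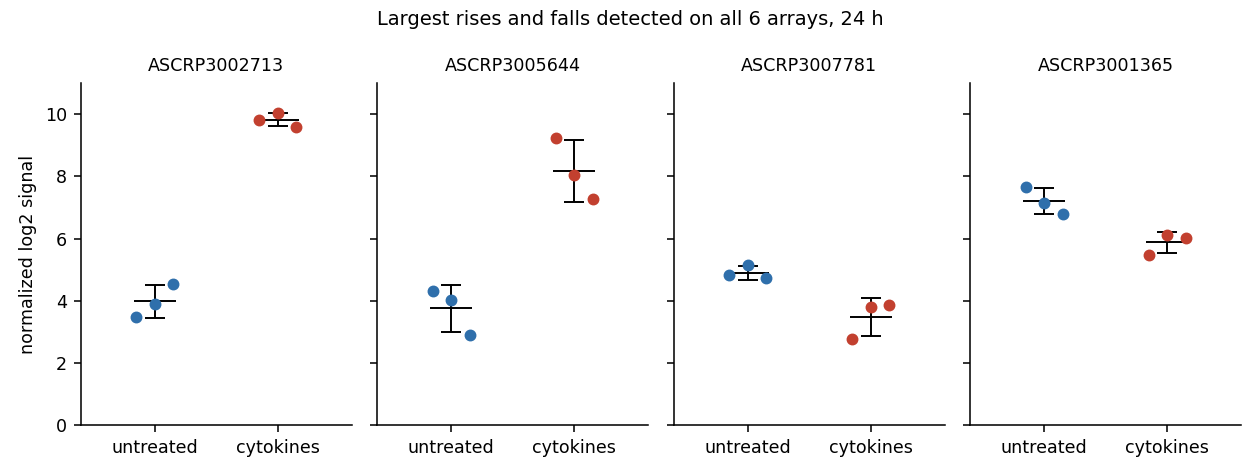
Normalized log2 signal of the 2 largest rises and the 2 largest falls among DE probes well above background on all 6 arrays at 24 h. Each point is 1 array (3 untreated in blue, 3 cytokine in red, in replicate order from left to right), and black bars are the mean and SD. The cytokine values of ASCRP3002713 lie between 9.60 and 10.04, and no untreated value of that probe exceeds 4.56.

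Some circRNA probes also crossed the detection limit, in either direction. Of the 13617 probes, 38 (0.279%) were detected on each of the 3 cytokine arrays and on no untreated array, and 39 (0.286%) on each of the 3 untreated arrays and on no cytokine array. A further 2705 probes were detected on none of the 6 arrays. Of the 38 gained probes 21 were DE, and of the 39 lost probes 5 were, beside 1.11% and 0.137% of all retained probes, but these probes differ between the groups by how they were picked, so the counts are only a description. Since the dim group then has only a bound, the size is given as at least the bright group's mean over the mean, per array, of the probe's own signal or the lowest detected signal (a log2 signal of 1.59 to 2.54), whichever was higher. The 21 gained DE probes were at least 1.46-fold to at least 11.5-fold higher, with a median bound of 3.93-fold. The 5 lost DE probes were at least 1.55-fold to at least 2.15-fold lower.

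The bounds of the gained probes were the larger ones. A bound of 2-fold or more was reached by 21 of the 38 gained and 2 of the 39 lost probes, and one of 4-fold or more by 9 and 0. The other DE rises comprised 11 probes seen on 1 or 2 cytokine arrays and no untreated array, and 13 seen on 1 or 2 untreated arrays. With every group without a detected array set to its bound, the median log2 fold change was 1.78 over the 113 rises and -1.15 over the 14 falls. With 1 array left out the criterion is looser by construction, and the 77 became 109 to 235. The nearly even split did not hold in all of these: it was 41 gained to 194 lost without the first cytokine array and 43 to 86 without the first untreated array.

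DE probes were found at every signal level. The retained probes were split into 4 equal classes by their mean log2 signal over the 6 arrays, which describes the spot and not the amount of a circRNA. This mean takes in the cytokine arrays, so a rise or a fall helps to set its own probe's class. From the dimmest to the brightest class, 34, 21, 23 and 35 probes were called higher and 9, 2, 1 and 2 lower. The share called was 1.68%, 0.901%, 0.940% and 1.45%. Rises in these classes had median log2 fold changes of 2.55, 2.57, 1.73 and 1.74, and the median within-group SD over all probes was 0.58, 0.43, 0.39 and 0.38.

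The authors' own normalized log2 values were read as a second version of the same hybridizations, which is no independent support. They followed the spot signal before background subtraction (r from 0.992 to 0.999 on the 6 arrays) more closely than the background-subtracted signal (r from 0.908 to 0.934). With the same fit and cutoffs 73 probes were DE (0.715%), 70 higher and 3 lower. Of these, 64 were among the 127 above, which is 87.7% of the 73 and 50.4% of the 127. All 127 had the same sign in the deposited values, with smaller log2 fold changes: the median was 1.13 over the 113 rises and -0.41 over the 14 falls. From the dimmest to the brightest class, the rises had medians of 2.55, 2.57, 1.73 and 1.74 in the processed values and of 0.58, 1.14, 1.20 and 1.55 in the deposited values, so the readings lay furthest apart for dim probes. The numbers of DE probes in the 4 classes were 3, 12, 16 and 42 with the deposited values. ASCRP3002713 had a log2 fold change of 4.72 in the deposited values, ASCRP3005644 of 3.18, ASCRP3007781 of -0.74 (not DE there) and ASCRP3001365 of -1.06. The count of 73 became 6 when only the 6 arrays were fitted and 31 to 280 with 1 array left out, with 280 for leaving out the third cytokine array and 219 for the third untreated one.

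**Figure D4:**
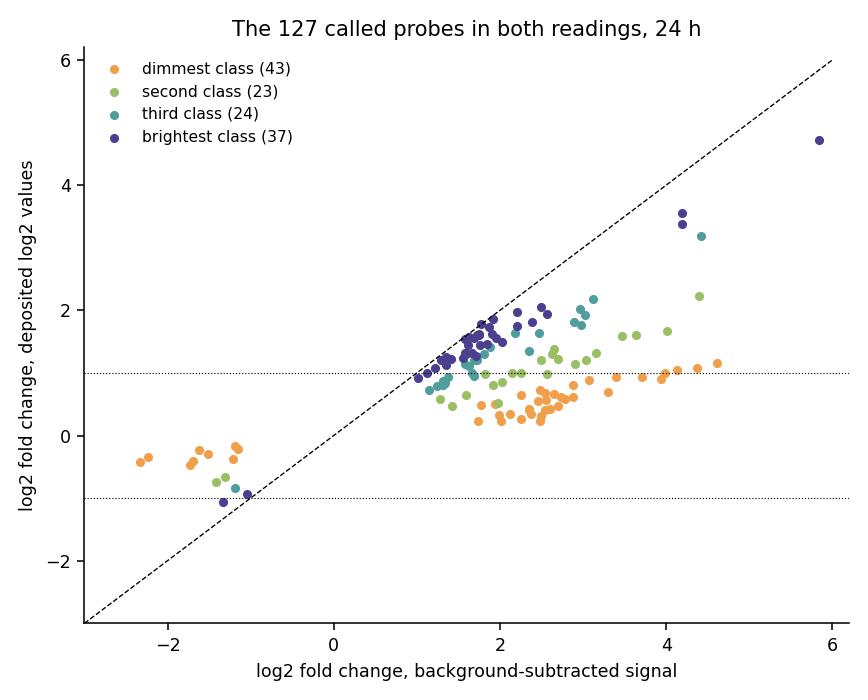
Log2 fold change of the 127 DE probes at 24 h in the background-subtracted signal (horizontal) and in the deposited log2 values (vertical), coloured by the 4 classes of mean signal. The dashed line marks equal values and dotted lines a deposited log2 fold change of 1 in either direction. Most probes of the brightest class lie near the dashed line, and most of those of the dimmest class lie between the dotted lines.

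The 48 h arrays gave a second look at the probes called at 24 h. They share no array with the 24 h comparison, though they entered the same normalization, detection filter and fit, and so its variance. Of the 127 probes, 122 (96.1%) had the same sign at 48 h, against 54.0% of all retained probes. The split was 111 of the 113 rises and 11 of the 14 falls. The larger sets of DE probes had a lower share, 71.2% without the third untreated array, 74.6% without the third cytokine array and 66.8% with array weights. The rises had a median log2 fold change of 1.82 at 48 h, and 69 were called again. The falls had a median of -0.32, and 1 was called again. Of all retained probes, 0.979% were called at 48 h in either direction. Of the 52 probes called with any single array left out, 45 were called at 48 h, and of the other 75 called probes, 25. The sign at 48 h was the same for 49 of the 52 and 73 of the 75. ASCRP3002713 and ASCRP3005644 had log2 fold changes of 4.72 and 4.71 at 48 h, both DE, ASCRP3007781 of -0.54 (adjusted p = 0.628) and ASCRP3001365 of 0.40 (adjusted p = 0.715). ASCRP3005644 was not detected on every 48 h array, so its 48 h value may not be measured on both sides. As an interaction term in limma, the difference between the times was called for 0 probes at the same cutoffs, with a lowest adjusted p of 0.251 over all probes, so none of these changes was shown to differ between 24 h and 48 h.

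Linear mRNA probes on the same arrays gave 0 calls. As the RNA was treated with RNase R before labelling, they read the linear RNA left after digestion and not mRNA levels in the cells. The array has 70 linear mRNA probes of 10 spots each, and 69 of them, measured on all arrays, were fitted together with the circRNA probes (10280 tested, 1.22% called, all of them circRNA probes). Of the 69, 40 were on the higher side, the median log2 fold change was 0.02, and 6 had an unadjusted p under 0.05. The 10 that were brighter than all 60 negative-control probes on every array split into 5 higher and 5 lower, with a median of -0.12. None of the 3 probes of actin cytoskeleton genes, the 2 of glycolysis or the 3 of ribosome and translation genes passed the test.

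Of the bright linear probes, ACTG1, which encodes cytoplasmic γ-actin, had the lowest adjusted p. It read 5.65, 5.90 and 6.57 in untreated and 7.25, 7.25 and 7.06 in treated cells, without overlap. The log2 difference was 1.14 (SE 0.28, adjusted p = 0.0735), and it passed the cutoffs without the third untreated array, at 1.41 (adjusted p = 0.0208). PFN1, which encodes the actin-binding profilin, read 11.89, 12.03 and 11.75 against 10.03, 12.03 and 12.10. Only the first cytokine array stood low, and without it the difference of -0.50 (adjusted p = 0.557) became 0.18 (adjusted p = 0.76). The glycolytic enzyme GAPDH, the ribosomal stalk protein RPLP1 and the ribosome-bound scaffold RACK1 were on the higher side with log2 differences of 0.33, 0.84 and 0.40, adjusted p from 0.361 to 0.555, and no overlap between the groups. Of all retained circRNA probes, which have 1 spot each, 8.63% likewise had every cytokine array higher. POLR2A, the large subunit of RNA polymerase II, had -0.65, the mitochondrial import protein MTX1 -0.52 and SERPIND1, the heparin cofactor made in liver, -0.58, with adjusted p from 0.222 to 0.364 and overlapping groups.

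**Figure D5:**
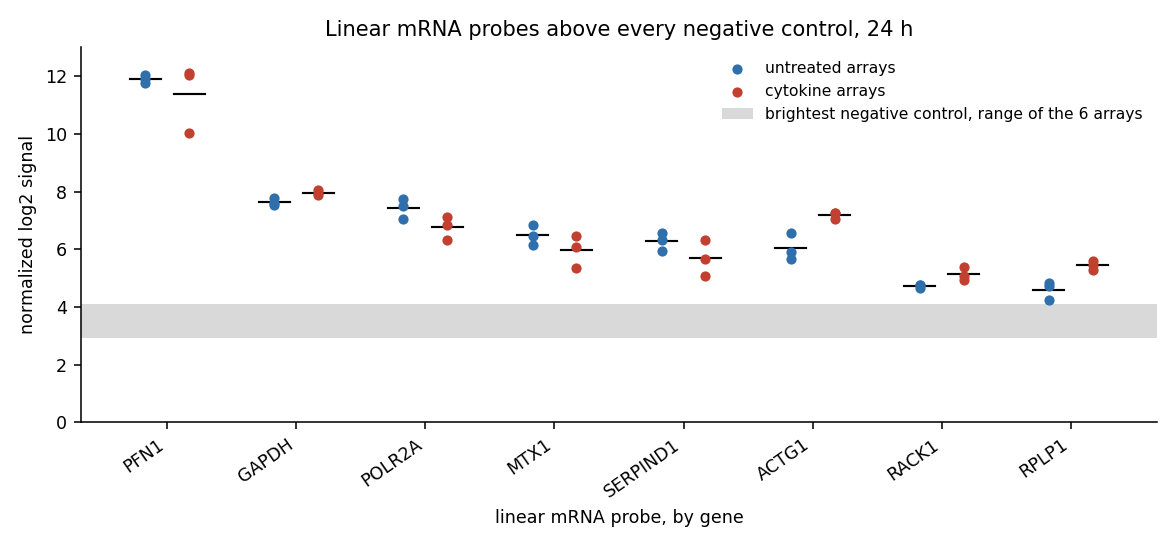
Normalized log2 signal at 24 h of 8 of the 10 linear mRNA probes that were brighter than every negative-control probe on all arrays, ordered by their untreated mean. Points are arrays (3 untreated in blue, 3 cytokine in red), short black lines are group means, and the grey band is the range over the 6 arrays of the brightest negative-control probe (2.93 to 4.08). ACTG1, GAPDH, RPLP1 and RACK1 are separated by group, and PFN1 has 1 low cytokine array.

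For the control probes, spots of 1 array lay closer together than arrays did in the median. The 15 circRNA control probes, which the array holds at 10 spots each, had a median SD between the spots of 1 array of 0.11 log2 units (0.05 to 0.14 per probe). Between the 3 arrays of a group their median SD was 0.28 in untreated and 0.36 in treated cells. Exceptions were a probe with 0.08 between spots and 0.01 between treated arrays, and another with 0.13 between spots and 0.07 between untreated arrays. Over the 10211 retained probes the median SD between arrays was 0.35 and 0.44, and their spread between spots was not measured, as each has 1 spot. Whether this spread came from culture, RNase R digestion, labelling or hybridization was not tested.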

How the data were processed

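RNA of EndoC-βH1 cells was measured on 12 one-colour arrays in 4 groups of 3. The authors treated total RNA with RNase R, labelled it with Cy3, hybridized it to the Arraystar Human circRNA Array V2, and read the images with Agilent Feature Extraction 11.0.1.1. They deposited each array's spot fluorescence intensity (median signal, local background and background-subtracted processed signal). The deposited detection flags are coded 0 or 1 and are no measurement. The authors also deposited a series table of log2 values after quantile normalization. Against the scanner values that table is on a log2 scale without gene centring, with array medians of 5.07 to 5.10, and it has no direction to settle, since arrays are one-colour. How its background was treated is not given in the sources used here.

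Here log2 processed signals were quantile normalized over the 13617 circRNA probes of 12 arrays. No processed signal was 0 or below, so none was floored. Probes were retained where the flags for a positive, significant signal and for a signal well above background were both set on at least 3 arrays, and limma 3.58.1 (R 4.3.3) fitted a mean for each of the 4 groups (eBayes without trend, 1 log2 unit in either direction, adjusted p under 0.05). Linear mRNA and circRNA control probes were normalized with all spots of control type 0 and averaged over uniform spots, and all 70 linear probes were named from RefSeq (GRCh38.p14) by accession. The fit was tested on simulated arrays. Exact tests used scipy 1.17.1 and figures matplotlib 3.10.9.

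Depth here means signal over background, and 3 arrays per group limit the precision. Replicate numbers were checked for pairing by correlating the deviations of same-numbered 24 h arrays from their group means. For these 3 pairs r ran from 0.00 to 0.17, with 2 above 0.1, and for the 6 other pairs from -0.18 to 0.08. So few pairs cannot settle whether the arrays were paired, and the main fit did not treat them as pairs. The arrays, probe lists and tests were chosen with earlier results of these data known. Probes named are the 2 largest rises and 2 largest falls among DE probes detected on all 6 arrays, and the linear probes above all negative controls, of which 2 are not reported here. No table used here pairs circRNA probes with host genes, circRNA names or sequences, so none is given. The alternatives were other background corrections, normalizations, filters, variance models, blocks and arrays. The qPCR, islet and sequence-based parts of the study were not analysed here.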

Additional observations from a re-analysis of the deposited data

Results flagged for a closer look

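The 15 circRNA control probes lie outside the main measurement and carried signal. All 15 were brighter than each of the 60 negative-control probes on all 6 arrays of 24 h, with normalized log2 signals from 4.04 to 11.84 against 2.93 to 4.08 for the brightest negative control of an array. Fitted with the circRNA probes in limma, 0 of the 15 were called between cytokine-treated and untreated cells, with 5 on the higher and 10 on the lower side and log2 differences from -0.89 (adjusted p = 0.0693, the lowest of the 15) to 0.66 (adjusted p = 0.157). In each of these extremes, the 3 arrays of one group did not overlap with those of the other, as was so for 17.5% of all retained circRNA probes. What these control probes bind is not given in the sources used here.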

How the results depend on the processing

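The 127 DE probes became 44 with the 6 arrays of 24 h fitted alone and 41 with them also normalized alone, 32 with normexp background correction, 73 with the deposited log2 values, 1020 with array weights (62.7% of them higher), and 64 to 448 with 1 array left out. The 73 DE probes among those detected on all 6 arrays became 16, 19, 31 and 574 under the 6-array fit, the 6-array normalization and fit, normexp and array weights, and 28 to 321 with 1 array left out. The brightest class held 29.1% of the DE probes, and 15.9%, 71.9%, 57.5%, 48.9% and 46.7% with the 6-array fit, normexp, the deposited values, the signal before background subtraction and probes detected on all 12 arrays, and 14.7% to 31.5% with 1 array left out. The 73 DE probes of the deposited values became 6 with the 6-array fit and 31 to 280 with 1 array left out. Probes that crossed detection numbered 109 to 235, a rise fixed by the looser criterion, and linear probes called 0 to 1, with 1 array left out. The difference in detected probes per array ran from -526 to 188 with 1 array left out, so its sign rested on single arrays. PFN1 turned from -0.50 to 0.18 without the first cytokine array and ran from -0.86 to 0.18 with 1 array left out. The causes were not tested. Under every alternative run, DE probes were mostly higher, and 11 probes, all higher, were called in all 23 settings. A setting among these kept only probes detected on all 12 arrays, so no other probe could be among the 11.

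With the replicate number as a block, pairing being unsettled, 94 probes were DE, 48 of those detected on all 6 arrays, 66 in the deposited values and 0 linear probes. Of the 94, 96.8% had the same sign at 48 h and 22.3% lay in the brightest class. Over all alternatives the share with the same sign ran from 66.8% to 97.7%, lowest with array weights. Signal close to background limits the dim probes, and 3 arrays per group limit all comparisons. Alternatives for the brightness classes, the 48 h reading and the deposited values, the block for linear probes and leaving out arrays for the detected probes were added after the data had been seen.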

Other observations

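A few probes were set by a single spot. In 15 of the 10211 retained circRNA probes, 1 of the 6 arrays lay more than 4 log2 units above (12 probes) or below (3 probes) all of the other 5, a distance chosen after the values had been seen. The array that stood apart was the first untreated array in 7, the second cytokine array in 6 and the second untreated array in 2, and no other array. The brightest such spot had a log2 signal of 15.20 on the second untreated array, where the other 5 arrays read 4.17 to 5.73. Another read 6.08 on the second cytokine array and 14.14 to 14.37 on the other 5. Of the 15, 13 passed the fold cutoff of 1 log2 unit, 8 lower and 5 higher, and 0 were DE in limma. Picking probes by 1 distant array favours both outcomes, so this is only a description. A list made on the fold change alone would hold the 13. Each circRNA probe has 1 spot per array, so no second spot is there to compare with.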
